A study of Mus musculus with 12 samples.

Results

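Mitochondrial ribosomal protein genes (Mrp genes) encode the proteins of the ribosome inside mitochondria, and were measured here in pancreatic islets of NOD mice given an antibody against CD3 or a control IgG. They were taken as all genes of the authors' deposited comparison table whose symbol begins with Mrpl or Mrps followed by a number. This gave 77 of 13703 genes in that table, 48 with Mrpl names and 29 with Mrps names, all annotated as protein-coding. Every one had enough reads to stay among the 13115 genes tested.

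The islets came from female NOD/ShiLtJ mice with no introduced allele, a strain in which lymphocytes infiltrate the islets and autoimmune diabetes follows. Mice with normal blood glucose were 9 weeks old at the start and were dosed weekly for 4 weeks with IgG or with anti-CD3 at 2.5 mg/kg. Poly(A) RNA of islets taken 2 to 3 days after the final dose was sequenced, in 6 libraries per antibody. Whether a library holds 1 mouse or a pool is not stated, so p-values measure only the spread between these samples, which may be technical.

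Mitochondria keep a small genome that encodes core subunits of the respiratory chain, and a dedicated ribosome translates those messages. Its RNAs are made from mitochondrial DNA, while every one of its proteins is encoded in the nucleus, made in the cytosol and imported. The large subunit, built mainly from Mrpl proteins, forms peptide bonds, and the small subunit, built mainly from Mrps proteins, reads the message. Beta cells depend on mitochondrial respiration to couple glucose to insulin release.

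Total counts ran from 10994337 to 19284740 per library, and Mrp genes held 7547 to 20287 of them. The smallest count of any Mrp gene in any library was 19. All 23 endocrine markers, Ins1, Ins2, Gcg and Sst among them, were counted in every library, as were all 10 ductal and all 18 stromal and vessel markers. Acinar genes, which encode digestive enzymes, took 55.8% of the counts in IgG 5, 32.6% in IgG 6 and between 65.2% and 73.1% in the other libraries. Leukocyte genes took 0.238% in IgG 6 and at most 0.0433% elsewhere. Of the leukocyte genes tested 0 of 22 had a positive log2 fold change (median -1.24), of the stromal and vessel genes 0 of 18 (median -0.85), of the endocrine genes 8 of 23 (median -0.096), of the ductal genes 6 of 10 (median 0.34) and of the acinar genes 38 of 39 (median 0.68). Without IgG 5 and IgG 6 these medians were -0.10, -0.41, -0.086, 0.097 and 0.33. Leukocyte genes took 0.00337% to 0.238% of the counts in IgG and 0.00315% to 0.0200% in anti-CD3, and 0 of the 24 were at 0 in all libraries. In bulk RNA fewer cells of a type and less RNA per cell cannot be told apart.

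The design sets islets after anti-CD3 against islets after IgG, to read the effect of the antibody on islet transcripts. Most Mrp genes stood somewhat higher after anti-CD3, but none passed edgeR's test adjusted over all genes. Of the 77, 71 had a positive log2 fold change, against 44.8% of all genes tested, and the median was 0.33, against -0.049 for all genes tested. The median was 0.17 and 0.15 with either of 2 offsets for transcript length, with 57 and 53 positive. In a fit that also held the acinar score it was 0.20, with 64 positive. With edgeR's quasi-likelihood test at an adjusted p of 0.05, 0 of 77 were called, where 0.0762% of all genes tested were called higher and 0% lower. At an unadjusted p under 0.05, 31 of 77 (40.3%) were higher, against 9.68% of all genes, and 0 were lower, against 8.68%. With the acinar covariate 12 were higher at that threshold, against 4.92% of all genes, and without IgG 5 and IgG 6, 16, against 6.23%. DESeq2 called 7 of 77 higher, against 2.48% of all genes, and 0 lower, against 1.1%. The authors' deposited table lists 9 of 77 as higher at an adjusted p of 0.05, against 3.24% of its genes that have one, and 0 as lower, against 1.31%.

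The differences were small. The largest log2 fold change was 0.82, and 15 genes exceeded 0.5, a number not counted over all genes tested. In no Mrp gene did the groups separate completely. On the deposited normalized counts 0 of 77 had all anti-CD3 libraries above all IgG libraries, against 1.14% of all genes tested, and 0 had them all below, against 0.649%. On TMM-scaled CPM both counts were also 0, against 1.2% and 0.64%. For 30 Mrp genes the mean of the IgG libraries was below each of the 6 anti-CD3 values, a count that was not made for all genes tested. The highest of the 12 libraries was an anti-CD3 library in 66 of 77 Mrp genes (85.7%), against 41.0% of all genes tested. The lowest was an IgG library in 68 (88.3%), against 51.7%.

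**Figure D1:**
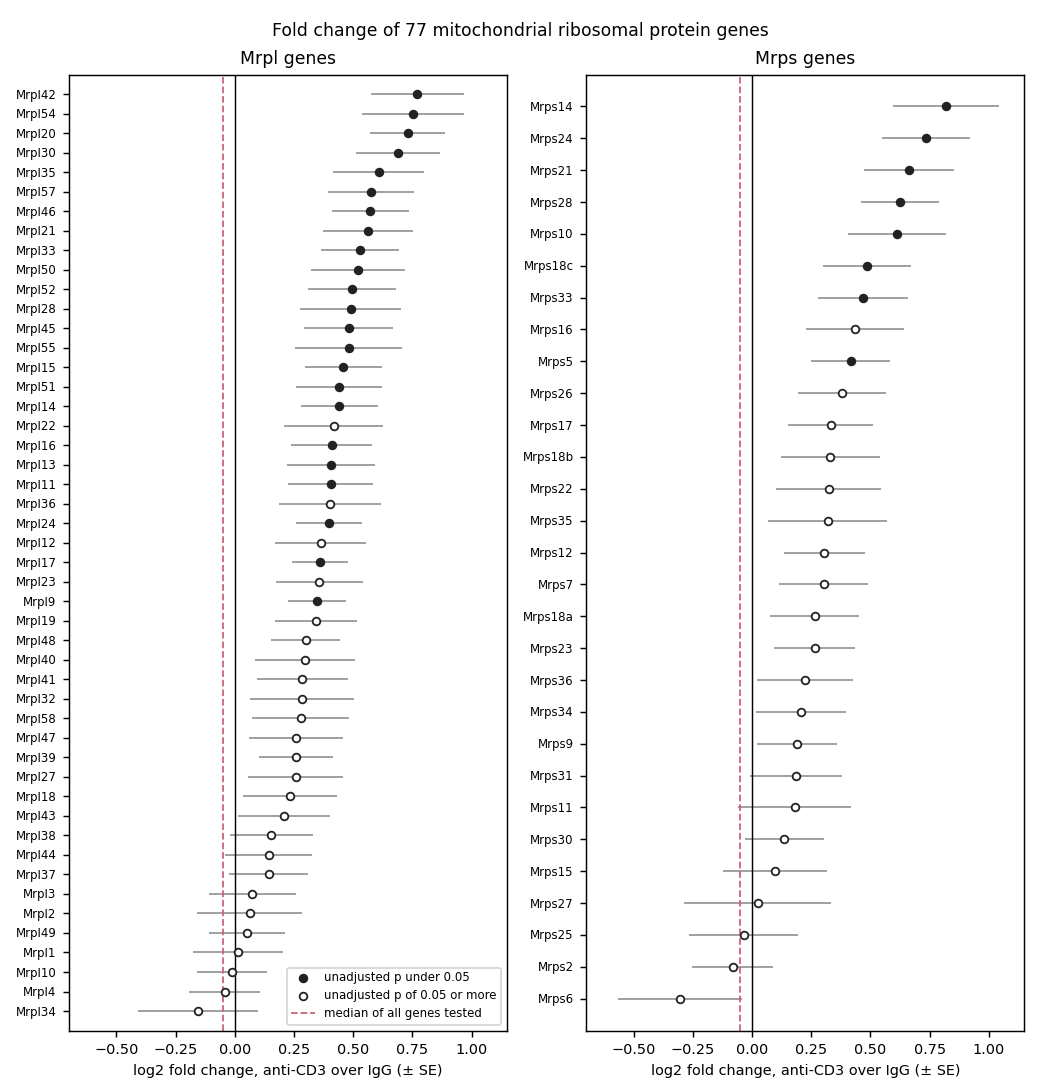
Log2 fold change, anti-CD3 relative to IgG (x axis, edgeR, error bars are SE) for 48 Mrpl genes and 29 Mrps genes, ordered by value. Filled points have an unadjusted p under 0.05, and 71 of 77 points lie to the right of 0, while the dashed line marks the median of all genes tested.

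Among proteins of the large subunit, Mrpl20 had the smallest p. Its bacterial counterpart binds ribosomal RNA early in subunit assembly. Its normalized counts (the authors' counts divided by 1 size factor per library) were 112, 128 and 169 (lowest, median and highest) in IgG and 158, 241 and 256 in anti-CD3. All but 1 of the anti-CD3 libraries lay above every IgG library, the exception being anti-CD3 2. The log2 fold change was 0.73 ± 0.16 (SE of 6 against 6 libraries), or 1.66-fold, with an edgeR adjusted p of 0.0659.

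Mrpl42 encodes a protein found in mitochondrial ribosomes and not in bacterial ones. Its normalized counts were 94.3, 117 and 186 in IgG and 158, 228 and 279 in anti-CD3, with anti-CD3 2 again inside the IgG range. The log2 fold change was 0.77 ± 0.20 (SE; edgeR adjusted p = 0.0885). Mrpl30, which has a bacterial counterpart, had 192, 243 and 333 in IgG and 244, 423 and 520.05 in anti-CD3. Here too 5 of 6 anti-CD3 libraries exceeded every IgG library, and the log2 fold change was 0.69 ± 0.18 (SE; edgeR adjusted p = 0.0887).

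Mrpl54, another protein without a bacterial counterpart, had normalized counts of 55.2, 86.8 and 137 in IgG and 114, 139.7 and 199 in anti-CD3. IgG 1, at 137, reached into the anti-CD3 range, and the log2 fold change was 0.75 ± 0.22 (SE; edgeR adjusted p = 0.112). Mrpl46, which sits in the central protuberance that bridges to the small subunit, had 85.3, 93.8 and 129 in IgG and 112, 145 and 179 in anti-CD3, or 0.57 ± 0.16 (SE; edgeR adjusted p = 0.111). Mrpl33, a small protein with a bacterial counterpart, had 84.2, 108 and 147 in IgG and 134, 155 and 208 in anti-CD3, or 0.53 ± 0.16 (SE; edgeR adjusted p = 0.136). In both genes 4 of 6 anti-CD3 libraries exceeded IgG 1, the highest of the IgG libraries.

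In the small subunit the leading gene was Mrps24, the counterpart of the bacterial protein at the site where messenger RNA enters. Its normalized counts were 121, 167 and 224 in IgG and 201, 307 and 338 in anti-CD3. The anti-CD3 libraries fell apart into 4 between 294 and 338 and the other two, anti-CD3 2 and anti-CD3 4, at 201, inside the IgG range. The log2 fold change was 0.73 ± 0.18 (SE; edgeR adjusted p = 0.0866). Exons of Mrps24 share 226 bases with Urgcp on the same strand, so some of its reads could belong to either gene.

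Mrps14, a protein of the small subunit's head, had the largest fold change, 0.82 ± 0.22 (SE; edgeR adjusted p = 0.10), or 1.76-fold. Normalized counts were 85.6, 108 and 159 in IgG and 125, 226 and 268 in anti-CD3, and anti-CD3 2 and anti-CD3 4, at 125 and 141, again lay within the IgG range. Mrps28 had 59.1, 72.7 and 81.0 in IgG and 78.0, 111 and 134 in anti-CD3, with a log2 fold change of 0.62 ± 0.16 (SE; edgeR adjusted p = 0.0911). Only anti-CD3 2, at 78.0, was not above the highest IgG library. Mrps21, one of the shortest of these proteins' messages, had 121, 148 and 198 in IgG and 155, 240.4 and 323 in anti-CD3, or 0.66 ± 0.19 (SE; edgeR adjusted p = 0.111).

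The 7 genes called by DESeq2 were Mrpl20, Mrpl30, Mrpl42, Mrpl54, Mrps14, Mrps24 and Mrps28, with adjusted p from 0.00621 for Mrpl20 to 0.0491 for Mrpl54. The authors' deposited table also listed Mrps21 and Mrpl46, at adjusted p of 0.0465 and 0.0464. The edgeR calls depended on 1 library and on the filter. Without anti-CD3 2, edgeR called 6 of 77 higher, against 1.35% of all genes, and 0 lower, against 0.181%. These were Mrpl20, Mrpl30, Mrpl42, Mrps14, Mrps24 and Mrps28. Anti-CD3 2 was the lowest anti-CD3 library in 9 of the 10 Mrp genes of smallest p with a positive value, and in 45 of all 77. With no filter on low counts edgeR called 5 of 77, against 0.49% of all genes, and 0 lower, against 0.0629%. Those 5 were also called by DESeq2 and without anti-CD3 2.

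**Figure D2:**
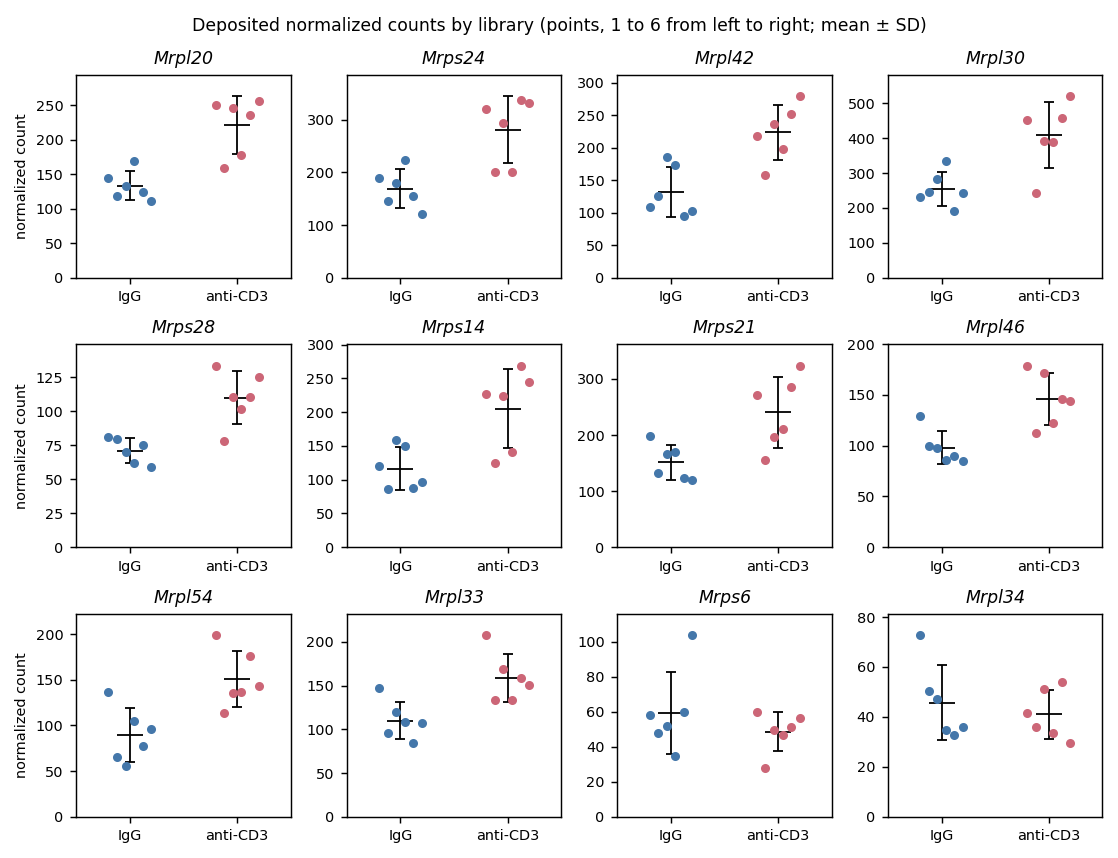
Deposited normalized counts (y axis, from 0) in 6 IgG and 6 anti-CD3 libraries for the 10 Mrp genes of smallest p with a positive fold change and for Mrps6 and Mrpl34. Black bars give mean ± SD, and in every panel the groups overlap.

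On GRCm38, Mrpl20 (ENSMUSG00000029066) lies on chromosome 4 from 155802878 to 155809975 and Mrpl42 (ENSMUSG00000062981) on chromosome 10 from 95480805 to 95501940. Mrpl30 (ENSMUSG00000026087) and Mrps14 (ENSMUSG00000058267) are both on chromosome 1, from 37890477 to 37898535 and from 160195215 to 160202170. Mrps24 (ENSMUSG00000020477) spans 5703983 to 5715680 on chromosome 11 and Mrps28 (ENSMUSG00000040269) spans 8802146 to 8923918 on chromosome 3. Values sum reads over each gene's exons. Exons of 32 of the 77 Mrp genes overlap exons of another gene on either strand. No source used here gives the strand setting of the counting, so reads in such stretches cannot be assigned. The median log2 fold change was 0.30 for those 32 and 0.36 for the other 45.

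Only 6 Mrp genes had negative values, none of them at an unadjusted p under 0.05. Mrps6, a small subunit protein with a bacterial counterpart, was lowest at -0.31 ± 0.26 (SE; edgeR adjusted p = 0.538). Its normalized counts were 34.8, 55.0 and 104 in IgG and 27.9, 50.5 and 59.6 in anti-CD3. The IgG maximum was IgG 6, and without IgG 5 and IgG 6 the value was -0.0052. Exons of Mrps6 share 159 bases with the sodium/myo-inositol cotransporter gene Slc5a3 and 305 with Gm49711, both on the same strand. Mrpl34 was at -0.15 ± 0.25 and Mrps2 at -0.083 ± 0.17 (SE; edgeR adjusted p = 0.764 and 0.821). Mrpl4, whose bacterial counterpart lines the exit tunnel, was at -0.042 ± 0.15, Mrps25 at -0.036 ± 0.23 and Mrpl10 at -0.013 ± 0.15 (SE). Mrps25 shares 69.8% of its exon bases with Nr2c2 on the opposite strand.

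Genes were also grouped by position in the ribosome, with no test of the differences. The genes of each position were chosen after their values were seen. In the stalk that recruits translation factors, Mrpl12 was at 0.36 ± 0.19 and Mrpl11 at 0.40 ± 0.18, while Mrpl10, which anchors the stalk, was at -0.013 ± 0.15 (SE). Normalized counts of Mrpl12 were 152, 187 and 245 in IgG and 153, 231 and 348 in anti-CD3, so the ranges overlapped from the bottom up. All 6 genes chosen for the central protuberance were positive, with a median of 0.29. All 5 chosen for the exit tunnel were positive, with a median of 0.40. Mrpl4, whose bacterial counterpart lines that tunnel, was not among these 5 and had a negative value. With the longest transcript offset 4 of 6 and 4 of 5 were positive. Mrpl58, a peptidyl-tRNA hydrolase that frees stalled chains and is built into the large subunit, was at 0.28 ± 0.20 (SE; edgeR adjusted p = 0.472), with anti-CD3 values of 160 to 226 inside the IgG range of 105 to 243. All 4 genes chosen for the small subunit's head were positive (median 0.46), and they are not all of its proteins. The 3 chosen for the messenger RNA channel and decoding site were also positive (median 0.42), of which 2 were with the longest transcript offset. Mrps12, which lies at the decoding site, was at 0.30 ± 0.17 (SE; edgeR adjusted p = 0.350) and turned to -0.063 and -0.038 with the longest and the principal transcript offset.

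Subunit and ancestry made small differences, which were not tested. The 50 large subunit genes (Mrps18a and Mrps30 counted there, since their proteins sit in that subunit) had a median of 0.36, with 47 positive and 23 at an unadjusted p under 0.05. The 26 small subunit genes had 0.32, with 23 and 8. Proteins with a bacterial counterpart (45 genes) had a median of 0.36, and those without one (30 genes) 0.29. Mrps36 was placed in neither subunit because its protein is also known as a subunit of the 2-oxoglutarate dehydrogenase complex, and it was at 0.22 ± 0.20 (SE; edgeR adjusted p = 0.559).

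The summed normalized counts of large subunit genes were 2.24 to 2.44 times those of small subunit genes in IgG and 2.26 to 2.40 times in anti-CD3. These ranges of the ratio overlapped almost entirely. Over all 77 genes the sum was 9287 ± 1338 (SD, n = 6) after IgG and 11933 ± 1700 (SD, n = 6) after anti-CD3. As a share of all counts, before any scaling, Mrp genes made up 0.0789% ± 0.0263 (SD, n = 6) after IgG and 0.0660% ± 0.0043 (SD, n = 6) after anti-CD3. That order is opposite to the scaled values, and IgG 6, the library of lowest acinar share, had the largest share at 0.126%. Outside the acinar genes the share was 0.206% ± 0.021 (SD, n = 6) after IgG and 0.229% ± 0.021 (SD, n = 6) after anti-CD3.

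The triplet of Mrps18 genes encodes related proteins that sit in different places, Mrps18c in the position of the bacterial protein and Mrps18a in the large subunit. Mrps18c was at 0.48 ± 0.19, Mrps18b at 0.33 ± 0.21 and Mrps18a at 0.26 ± 0.19 (SE; edgeR adjusted p = 0.198, 0.405 and 0.456). Mrps30, also of the large subunit, was at 0.14 ± 0.17. Mrpl3, Mrps16, Mrps22 and Mrpl44, whose human counterparts are mutated in combined oxidative phosphorylation deficiencies, were at 0.075 ± 0.18, 0.44 ± 0.21, 0.32 ± 0.22 and 0.14 ± 0.18 (SE). None of these genes passed edgeR, and in each of them the range of one group overlapped that of the other.

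Levels differed between Mrp genes far more than between groups. Per kb of annotated exon, the highest mean normalized counts over the 12 libraries were those of Mrps21 at 265, Mrps24 at 153 and Mrps23 at 147. The order below the first differed by group. In IgG alone Mrps21 was at 205, followed by Mrpl10 at 141 and Mrps23 at 133, with Mrps24 at 115. In anti-CD3 alone Mrps21 was at 325, followed by Mrps24 at 192 and Mrpl54 at 183. The lowest over the 12 libraries were Mrps35 at 7.21, Mrps25 at 7.61 and Mrps10 at 9.74. Annotated exons include long rare isoforms, and this moves the order. Per kb of the principal transcript, the isoform marked as the main one by APPRIS, Mrps21 was again highest at 401 ± 136 (SD, n = 12) and Mrps25 lowest at 8.24 ± 2.00, whereas Mrps10 moved from rank 75 to rank 40 of 77. Between libraries of 1 group, the SD of log2 normalized counts had a median of 0.301 in IgG and 0.295 in anti-CD3 over the 77 genes. The spread was widest for Mrps6 in IgG, at 0.51, and for Mrps27 in anti-CD3, at 0.76.

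The Mrp genes varied together from library to library. Their mean log2 CPM was lowest in IgG 5, IgG 6 and IgG 2, at 2.70, 2.71 and 2.72, and reached 2.94 in IgG 3, 2.99 in IgG 4 and 3.13 in IgG 1. In anti-CD3 it was 2.92 in anti-CD3 2, 3.01 in anti-CD3 4, 3.22 in anti-CD3 6, 3.27 in anti-CD3 3, 3.38 in anti-CD3 5 and 3.40 in anti-CD3 1. The groups overlapped, with anti-CD3 2 and anti-CD3 4 inside the IgG range and IgG 1 above both. Of the 77 genes, 69 were above their own 12-library mean in anti-CD3 1 and 73 in anti-CD3 5, against 8 in IgG 5 and 9 in IgG 2. These counts were not made for all genes tested, so they do not show a trait particular to the Mrp genes.

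Transcript length moved with this order. Mrp transcripts are short, with a median principal transcript of 1316 bases against 3011 for all genes tested. Across all genes tested, length and log2 fold change had a Spearman rho of -0.33, and across the 77 Mrp genes of -0.22, both given as descriptions because genes of the same libraries are not independent. Within each library, the rho of principal transcript length with a gene's deviation from its 12-library mean tells whether long or short genes stood high there. It was -0.46 in anti-CD3 1, -0.28 in anti-CD3 6, -0.25 in anti-CD3 5, -0.17 in anti-CD3 3 and -0.14 in IgG 1, the 5 libraries with the highest mean of the Mrp genes. In the other 7 it was positive, from 0.038 in anti-CD3 4 to 0.35 in IgG 2, with 0.26 in anti-CD3 2.

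**Figure D3:**
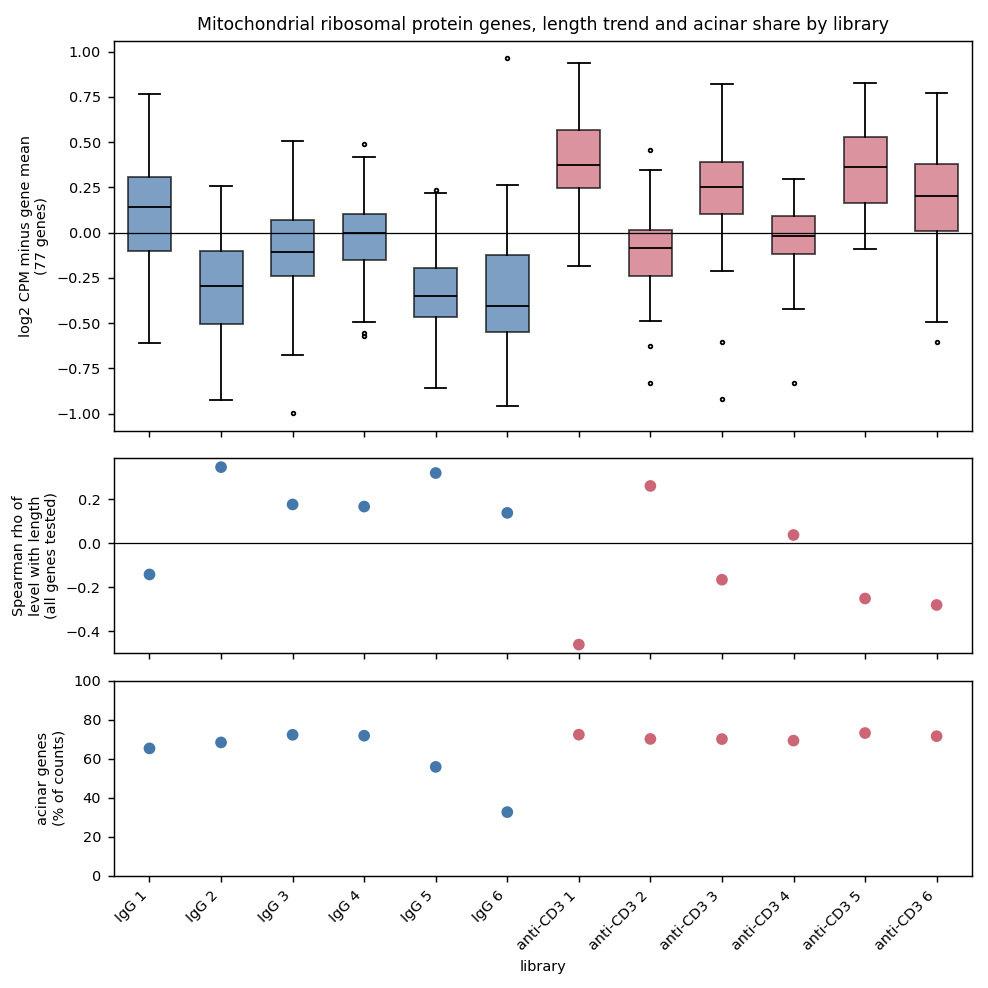
By library, from top to bottom, the deviation of 77 Mrp genes from their own mean log2 CPM (boxes are quartiles, whiskers reach at most 1.5 box lengths), the Spearman rho of gene level with principal transcript length over all genes tested, and the acinar share of counts. The 5 libraries with a negative rho have the highest Mrp medians, and IgG 5 and IgG 6 have the lowest acinar shares.

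With an offset that removes each library's trend over the longest annotated transcript, the median of the Mrp genes was 0.17, and 57 of 77 were positive. At an unadjusted p under 0.05, 23 were then higher, against 8.49% of all genes, and 2 lower, against 7.72%, and 0 of 77 passed the adjusted test in the higher direction, against 0.0305% of all genes. Over the principal transcript, an offset chosen after the data were seen, the median was 0.15, with 53 positive and 18 higher at an unadjusted p under 0.05, against 8.08% of all genes, and 2 lower, against 7.42%. With it 0 of 77 passed the adjusted test, against 0.0381% higher. The leading genes moved unequally. With the first offset Mrps14, whose principal transcript has 2999 bases, was at 0.80 ± 0.22 and Mrpl42 at 0.78 ± 0.19, where Mrps21 was at 0.13 ± 0.12, Mrpl20 at 0.33 ± 0.11, Mrps24 at 0.39 ± 0.14 and Mrps28 at 0.20 ± 0.14 (SE). The longest transcript annotated for Mrpl42 has 3277 bases and its principal one 666, and with the second offset it was at 0.34 ± 0.17 (SE).

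IgG 5 and IgG 6 had the lowest acinar and the highest leukocyte shares. IgG 1 and IgG 2, at 65.2% and 68.3%, also lay below the anti-CD3 acinar range of 69.2% to 73.1%. Their leukocyte shares of 0.0249% and 0.0234% were above the anti-CD3 maximum of 0.0200%. IgG 3 and IgG 4 lay inside the anti-CD3 range of both shares. With the acinar score (mean log2 CPM of the acinar genes) as a covariate, the median was 0.20, 64 of 77 were positive and 12 were higher at an unadjusted p under 0.05, against 4.92% of all genes (4.25% were lower). Without IgG 5 and IgG 6 the median was 0.25, 65 were positive and 16 were higher at an unadjusted p under 0.05, against 6.23% (4.16% were lower). In both fits 0 of 77 passed the adjusted test, against 0% and 0.00757% of all genes called higher.

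**Figure D4:**
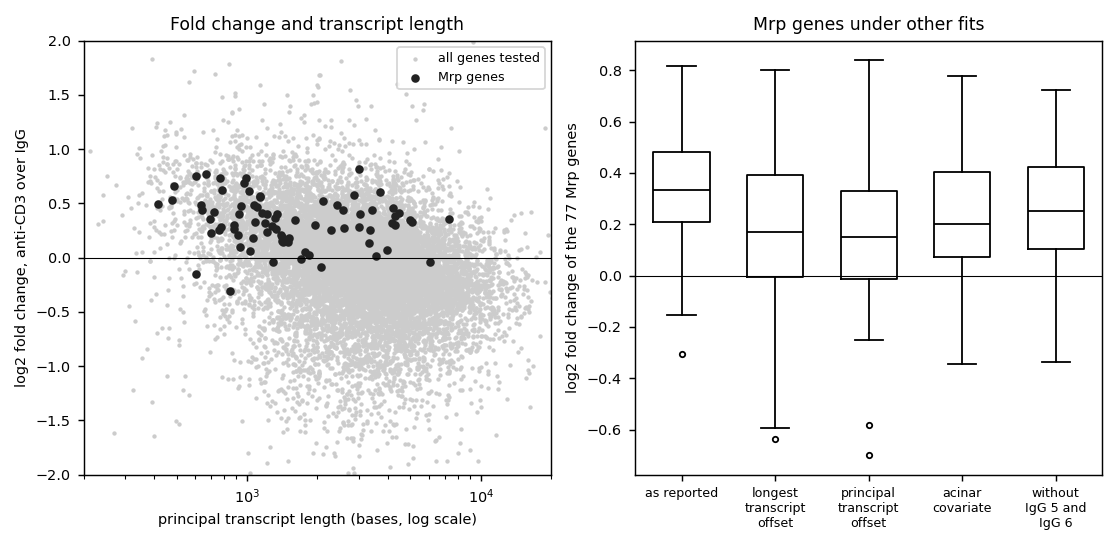
Left, log2 fold change (y axis) against principal transcript length in bases (log x axis) for all genes tested within the drawn range (grey) and for 77 Mrp genes (black), which lie mostly above 0 at the short end. Right, the Mrp fold changes under the reported fit and 4 others (boxes are quartiles), with medians of 0.33, 0.17, 0.15, 0.20 and 0.25 from left to right.

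Promoters of Mrp genes were searched for short strings of letters. RefSeq promoters on GRCm38.p6 (250 bases before to 50 after the start) were matched by symbol for 68 of the 77. Letters of the ETS factor GABPA (CCGGAAG), of NRF1 (GCGCATG) and of YY1 (AAGATGG), factors known to act on nuclear genes for mitochondrial proteins, were searched on both strands. None of these 3 strings can contain another. The ETS letters were found in 24 of 68 (35.3%), against 17.7% of promoters of genes tested and 9.12% of all promoters. YY1 letters were in 13 (19.1%), against 7.20% and 6.48%, and NRF1 letters in 8 (11.8%), against 7.0% and 4.04%. Any of the 3 was in 36 of 68 (52.9%), against 28.4% of promoters of genes tested and 17.9% of all, and the other 32 held none. The CCAAT box (CCAAT), searched as a contrast, was in 38.2% against 37.9% of promoters of genes tested. A match is a description of these letters and not a site.

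Promoters with and without the letters had similar fold changes. The median log2 fold change was 0.34 for the 24 Mrp genes with ETS letters and 0.32 for the other 44. It was 0.30 with YY1 letters and 0.35 without. The sequences are of a leading gene with NRF1 and ETS letters close together (Mrpl33, chr5:31613701-31614000, plus strand), the leading small subunit gene with YY1 letters near the end (Mrps24, chr11:5707652-5707951, minus strand), a gene with ETS letters in duplicate (Mrpl58, chr11:115403502-115403801, plus strand), and the gene of lowest fold change, with none (Mrps6, chr16:92058086-92058385, plus strand). Capitals mark the ETS, NRF1 and YY1 letters. The RefSeq start used for Mrps24 lies inside the gene's annotated span, which on the minus strand begins at 5715680.
Mrpl33: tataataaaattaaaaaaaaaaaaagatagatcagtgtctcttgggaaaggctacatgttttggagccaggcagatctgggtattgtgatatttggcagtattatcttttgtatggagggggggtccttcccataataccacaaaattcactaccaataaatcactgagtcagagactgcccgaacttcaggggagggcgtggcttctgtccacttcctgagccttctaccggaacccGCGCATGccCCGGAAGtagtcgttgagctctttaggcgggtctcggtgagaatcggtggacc
Mrps24: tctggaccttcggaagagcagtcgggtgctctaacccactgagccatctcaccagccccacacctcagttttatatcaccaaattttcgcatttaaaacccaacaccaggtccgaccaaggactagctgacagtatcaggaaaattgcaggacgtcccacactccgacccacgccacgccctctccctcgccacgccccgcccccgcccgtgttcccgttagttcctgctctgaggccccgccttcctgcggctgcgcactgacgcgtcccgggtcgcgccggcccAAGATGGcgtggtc
Mrpl58: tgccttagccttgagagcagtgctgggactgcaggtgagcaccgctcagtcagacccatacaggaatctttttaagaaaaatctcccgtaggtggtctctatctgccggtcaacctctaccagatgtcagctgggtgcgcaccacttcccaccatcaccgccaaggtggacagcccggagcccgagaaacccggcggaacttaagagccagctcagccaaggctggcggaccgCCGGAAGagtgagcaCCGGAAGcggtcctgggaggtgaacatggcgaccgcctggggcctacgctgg
Mrps6: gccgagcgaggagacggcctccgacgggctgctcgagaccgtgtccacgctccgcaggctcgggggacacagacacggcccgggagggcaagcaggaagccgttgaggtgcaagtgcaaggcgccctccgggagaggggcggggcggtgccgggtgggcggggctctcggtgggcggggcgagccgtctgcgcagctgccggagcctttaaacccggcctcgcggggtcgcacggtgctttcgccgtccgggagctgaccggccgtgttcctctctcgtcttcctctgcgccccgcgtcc

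Many Mrp genes also share a start region with a neighbour on the other strand. Of the 77, 33 (42.9%) began within 1000 bp of the start of a protein-coding gene on the opposite strand, against 15.4% of protein-coding genes tested. Neighbours included Mitd1 for Mrpl30, Sars2, a mitochondrial seryl-tRNA synthetase, for Mrps12, and Twnk, the mitochondrial DNA helicase, for Mrpl43. Mrpl46 and Mrps11 are each other's neighbour. Mrpl46 was at 0.57 ± 0.16 and Mrps11 at 0.18 ± 0.24 (SE), a difference that was not tested. The median was 0.30 for the 33 genes with such a neighbour and 0.36 for the other 44.

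Other genes of mitochondrial gene expression were followed in 8 lists, with no test between lists. None of their lists had a gene past edgeR's adjusted test, and DESeq2 called only Ddit3 among them. Of the 6 genes listed as ribosomal proteins with other names 5 were positive, with a median of 0.20. It was 0.12 with the longest and 0.14 with the principal transcript offset, where the Mrp medians were 0.17 and 0.15. The negative one was Oxa1l at -0.21 ± 0.15 (SE), an insertase that binds the ribosome and is not one of its proteins. Aurkaip1 was at 0.44 ± 0.14 and Chchd1 at 0.56 ± 0.18 (SE; edgeR adjusted p = 0.140 and 0.141), both small subunit proteins. Of 26 genes for assembly of the ribosome and modification of its RNA, 16 were positive, with a median of 0.066. Malsu1, which binds the large subunit late in its assembly, was at 0.67 ± 0.20, and Mettl15, a methyltransferase of the small subunit RNA, at 0.82 ± 0.44 (SE).

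Translation factors (8 of 11 positive, median 0.10) and mitochondrial aminoacyl-tRNA synthetases (12 of 19 positive, median 0.064) had no gene at an unadjusted p under 0.05. The elongation factor Gfm1 was at 0.25 ± 0.16, Mtfmt, which formylates the initiator, at -0.29 ± 0.24, and the synthetases Fars2 and Cars2 at 0.29 ± 0.16 and 0.32 ± 0.19 (SE). Genes of mitochondrial DNA expression had 7 of 16 positive and a median of -0.027. The messenger RNA stabilising protein gene Slirp was at 0.68 ± 0.24 and the topoisomerase gene Top1mt at 0.42 ± 0.21 (SE). Of the 13 messages that the mitochondrial ribosome translates 9 were tested, and these 9 were positive with a median of 0.27 and 0 at an unadjusted p under 0.05. Among them mt-Cytb was at 0.38 ± 0.22 and mt-Co1 at 0.37 ± 0.22 (SE). With the longest transcript offset their median was -0.014, with 3 of 9 positive, and with the principal transcript offset it was 0.015. Of the 9, mt-Co3 had normalized counts of only 5.68 to 17.5, and mt-Co2 had none in the authors' table. As a share of all counts, before any scaling, the mitochondrially encoded genes made up 0.642% ± 0.168 (SD, n = 6) after IgG. After anti-CD3 they made up 0.545% ± 0.094 (SD, n = 6), an order opposite to the scaled values.

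Regulators of mitochondrial biogenesis ran from -0.26 to 0.52, with 7 of 10 positive and a median of 0.032. This median was 0.12 with the longest and 0.022 with the principal transcript offset. Yy1 was at 0.24 ± 0.13 and Ppargc1a, the coactivator PGC-1 alpha, at 0.52 ± 0.34 (SE; edgeR adjusted p = 0.322 and 0.428). Of 13 genes of the mitochondrial unfolded protein response 10 were positive, with a median of 0.22. The transcription factor Ddit3, which also serves the endoplasmic reticulum stress response, was at 1.51 ± 0.27 and the protease subunit Clpx at 0.45 ± 0.18 (SE; edgeR adjusted p = 0.0646 and 0.219). The chaperonin gene Hspd1 was at -0.40 ± 0.18 (SE; edgeR adjusted p = 0.244), the 1 gene of the list lower at an unadjusted p under 0.05. The list's median was 0.029 with the acinar covariate and 0.0053 without IgG 5 and IgG 6.

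**Figure D5:**
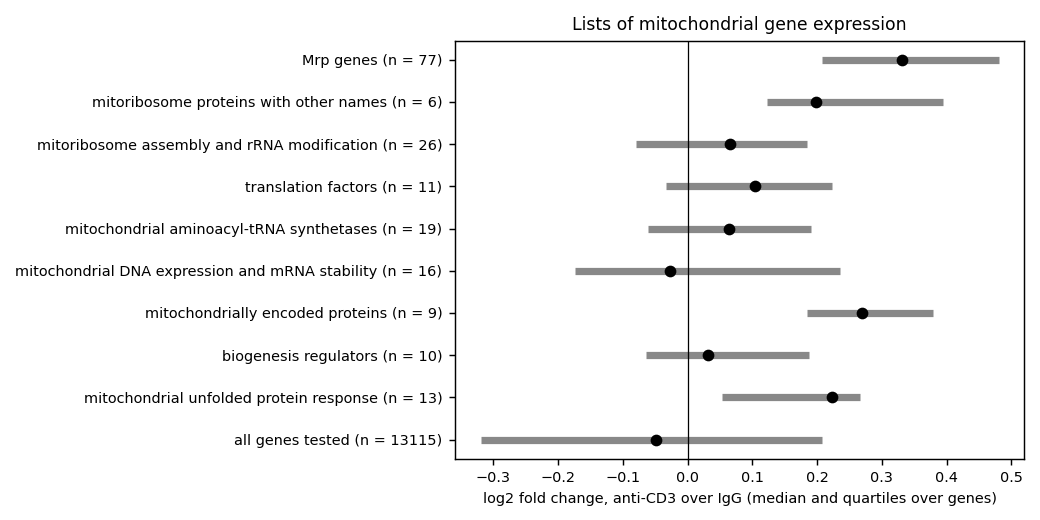
Median (points) and quartiles (bars) of log2 fold changes, anti-CD3 over IgG, for the Mrp genes, 8 other lists of mitochondrial gene expression and all genes tested. The Mrp median of 0.33 is above those of the other lists, and that of all genes tested is -0.049.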

How the data were processed

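Poly(A) RNA of pancreatic islets was sequenced in 12 libraries, 6 IgG and 6 anti-CD3, grouped by their titles. Per the submitters' processing notes, Trimmomatic 0.36, STAR 2.5.2b, featureCounts of Subread 1.5.2 and DESeq2 were used with GRCm38, with no order or options. The deposited counts are whole numbers for 49315 genes. The deposited signal (normalized counts) equals those counts divided by 1 size factor per library, and the authors' table adds a log2 fold change, a p-value and an adjusted p-value, which is NA for 2935 genes. Column names matched the titles' group and number, 1 with an unexplained prefix, and 0 columns of sample values were left unmapped.

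The Mrp genes, lists and fits were chosen with earlier results of these data known. Counts were tested in R 4.3.3 with edgeR 4.0.16 (filterByExpr with minimum count 10 and minimum total 15, TMM, robust quasi-likelihood F test, two-sided, Benjamini-Hochberg over all genes tested). DESeq2 1.42.0 was an alternative. The SE came from the log2 fold change and its F statistic. Log2 CPM used a prior count of 2, and length offsets were lowess fits (span 0.3) over GENCODE M21 transcript lengths. The procedure was tested on simulated data. Counts over libraries range from 10994337 to 19284740, and their number limits precision.

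Genes were named by rule: the 10 smallest p with positive and the 5 with negative values, the 3 highest and 3 lowest levels per kb, a panel of 13, and 2 of each other list. Others (Mrpl10, Mrpl11, Mrps11, Mrps27, Mrpl43, Hspd1, Oxa1l, mt-Co2, mt-Co3) were named after their values were seen, and the genes by position in the ribosome were set then too.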

Additional observations from a re-analysis of the deposited data

Results flagged for a closer look

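Of the named Mrp genes and 3 library-wide measures, 66 groups of 6 libraries were examined for a single library far from the rest, a check that marks about 1 group in 20 by chance. It was made on log2 CPM and marked 2 groups. Mrps6 had a normalized count of 27.9 in anti-CD3 2, below the other anti-CD3 libraries, which held 46.7 to 59.6. Mrpl4 had 179 in anti-CD3 1, above the other anti-CD3 libraries, which held 134 to 148.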

How the results depend on the processing

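No alternative gave a lower call for any of the 77 Mrp genes at an adjusted p of 0.05. The higher calls numbered 7 with DESeq2, 5 with no filter on low counts and 0 to 6 with 1 library left out, 6 only without anti-CD3 2. With RLE or upper-quartile factors, TMM without acinar, endocrine and leukocyte genes, a CPM filter or no robust estimation there were 0. At an unadjusted p under 0.05, 12 were higher with the acinar covariate, 18 with the principal transcript offset and 16 without IgG 5 and IgG 6. Of all genes tested 4.92%, 8.08% and 6.23% were higher in these fits. With 1 library left out the count ran from 23 to 42 of 77, where 7.65% to 11.8% of all genes tested were higher. The median stayed between 0.30 and 0.45 with 1 library left out. TMM-scaled CPM also gave 0 genes without overlap. With the acinar covariate the median of the assembly list was -0.077 and that of the unfolded protein response list 0.029, and the latter was 0.0053 without IgG 5 and IgG 6.

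Some named genes, with reported values from -0.31 to 0.33, changed sign in some fits. With the acinar covariate Mrps6 was at 0.14, Mrpl4 at 0.018, Mrps25 at 0.017, Mrps18b at -0.061, Mrps30 at -0.053 and Mrpl44 at -0.055. With the longest and the principal transcript offset, Mrps25 was at 0.087 and 0.098, Mrps12 at -0.063 and -0.038, Mrps36 at -0.20 and -0.18 and Mrpl44 at -0.038 and -0.011. Mrps18a was at -0.067 with the latter, and Mrpl44 at -0.028 without IgG 5 and IgG 6. With 1 library left out, Mrpl34 ran from -0.24 to 0.042, Mrps2 from -0.18 to 0.0083, Mrpl4 from -0.10 to 0.083, Mrps25 from -0.14 to 0.073 and Mrpl3 from -0.028 to 0.18. The cause was not tested.

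With the replicate number as a block, 0 Mrp genes passed the adjusted test. At an unadjusted p under 0.05, 32 of 77 were higher, against 10.9% of all genes tested. The median was 0.35 and Mrps25 was at 0.0073. Same-numbered libraries correlated from -0.29 to 0.55 in their deviations, not over 0.1 in every pair, so the numbers were not taken as pairing the samples. As a hint from the data and not the design, 3 of the 6 IgG libraries correlated best with their own number.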
